A study of Mus musculus with 2 samples.

Results

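The 6 genes described here encode cadherins, the transmembrane proteins that hold neighbouring cells together: Cdh1 (E-cadherin), Cdh3 (P-cadherin), Cdh2 (N-cadherin), Cdh11 (cadherin-11, once called OB-cadherin), Cdh5 (VE-cadherin) and Cdh6 (K-cadherin). They were taken by symbol from the 52550 gene identifiers of the count files, and no measured value entered that choice. They were followed in single cells by Drop-seq, which traps cells in droplets with barcoded beads and tags every captured transcript with a unique molecular identifier (UMI), so that copies made by PCR count once. The cells came from mouse embryos of the CD1 strain (wild type, E10.0), from which the posterior second heart field, a pool of mesodermal progenitors behind the heart, and the heart tube were dissected together. About 80 embryos were pooled for each of 2 libraries, which were prepared on different days and are biological replicates of 1 group. No treated or mutant embryos were analysed here, so cell types are compared within the same libraries, and differences between embryos of a pool cannot be seen.

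A cadherin on one cell binds cadherins on the next in the presence of calcium. Its cytoplasmic tail, which also binds p120-type catenins, is tied to actin through beta- and alpha-catenins. Epithelia of the ectoderm and endoderm typically carry E-cadherin, whereas neural tissue and heart muscle carry N-cadherin, and the exchange of one for the other accompanies gastrulation, neurulation and many epithelial-to-mesenchymal transitions. Cadherin-11 is best known from loose mesenchyme, VE-cadherin from endothelial adherens junctions, and cadherin-6 from the neural crest and the kidney.

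In GRCm38, 4 of the 6 genes lie on chromosome 8. Cdh3 (chr8:106510891-106557297) ends 46053 bases before the start of Cdh1 (chr8:106603351-106670246), both on the plus strand. Cdh5 (chr8:104101625-104144511) is on the plus strand and overlaps Gm29682 on the other strand. Cdh11 (chr8:102632095-102785642, minus strand) overlaps 4 annotated transcripts or gene models on its own strand, among them 9430099M06Rik, so some of its UMIs could belong to those. Cdh2 is on the minus strand of chromosome 18 (16588877 to 16809246) with Gm15485 opposite to it, and Cdh6 is on the minus strand of chromosome 15 (13028701 to 13173675). The sources used here do not say whether counting used strand.

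The cells kept, those in which 400 or more genes were detected and mitochondrial UMIs did not exceed 10%, numbered 4038 in replicate 1 and 4934 in replicate 2, with medians of 1364 and 1505 UMIs. A cell was placed in a type when it held at least 2 of that type's marker genes, none of them a cadherin, and fewer than 2 of every other type's. That placed 1133 and 1295 cells, while 144 and 150 cells met several types and were left out as possible doublets, and 2761 and 3489 cells met none. The unplaced cells were shallow (medians of 1030 and 1161 UMIs) and held a large part of the members' UMIs, for Cdh11 53.0% and 55.6%. In all, 13 types had at least 20 cells in each library and entered the tests, whereas pharyngeal mesoderm (5 and 15 cells) and macrophages (2 and 2 cells) did not. Myl7, the atrial myosin light chain, and Epcam, an epithelial adhesion molecule, were not used by the gates. Myl7 stood at 11856 and 16021 CPM (UMIs of the gene scaled to a total of 1000000 for the type) in cardiomyocytes. Epcam stood at 596.6 to 878.7 CPM in surface ectoderm, foregut endoderm and hepatoblasts. Not all markers left out of the gates were highest in the type they were listed for. Krt15, listed for surface ectoderm, was at 426.8 and 399.2 CPM in erythroid cells, against 90.8 and 34.1 CPM. Isl1, listed for splanchnic mesoderm, was at 376.1 and 365.4 CPM in neurons, against 194.6 and 156.2 CPM. Sox2, listed for foregut endoderm, was at 81.1 and 137.7 CPM in neural tube progenitors, against 67.4 and 73.0 CPM. Haemoglobin Hbb-y was at 319.0 to 872.9 CPM in every other type that entered the tests, against 136053 and 177077 CPM in erythroid cells, which gives the level that transcripts of another cell type reached in these gates.

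Each member had its own set of cell types. In level, Cdh1 reached 50 CPM on average in 3 of the 13 types, Cdh3 in 2, Cdh2 in 10, Cdh11 in 8, Cdh5 in 1 and Cdh6 in none. A 3′ UMI count stands for molecules and is not scaled by transcript length, so CPM of different cadherins are set side by side as molecule counts. Erythroid cells, which circulate singly in the blood, gave the low end: 0 to 12.5 CPM for any member in either library, from cells with medians of 3622 and 6040 UMIs.

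**Figure D1:**
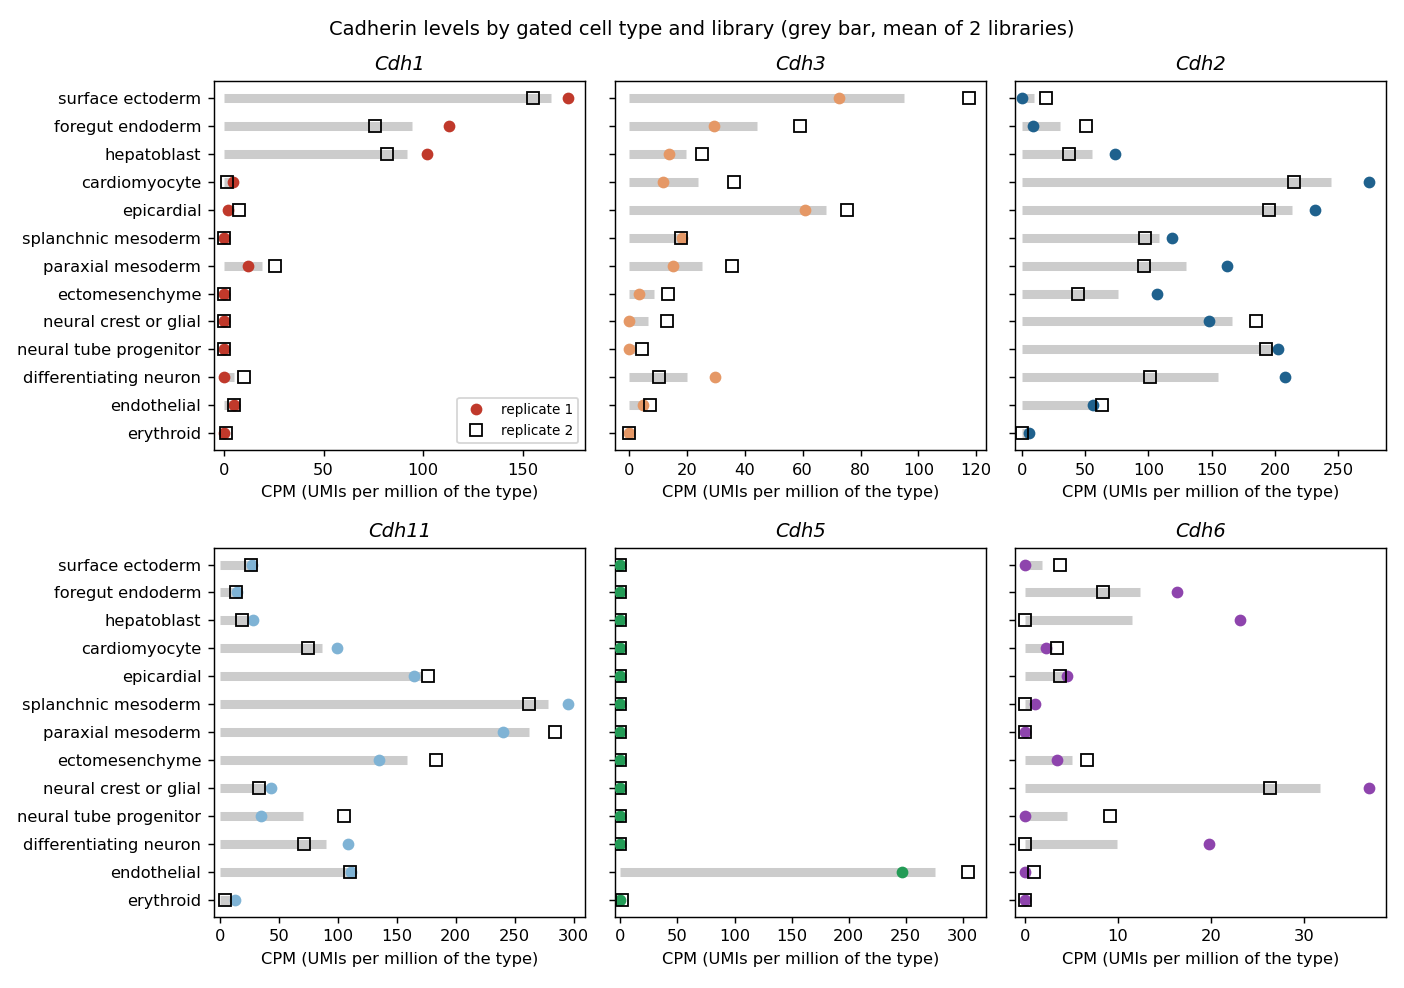
Level of each cadherin (horizontal axis, CPM) in 13 gated cell types (vertical axis), with replicate 1 as a filled circle, replicate 2 as an open square and their mean as a grey bar. Cdh1 stands above 75 CPM only in surface ectoderm, foregut endoderm and hepatoblasts, Cdh5 above 2 CPM only in endothelial cells, and Cdh2 and Cdh11 spread over many types.

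Cdh1, the cadherin of epithelial sheets, marked the ectodermal and endodermal epithelia. It was at 172.5 and 155.3 CPM in surface ectoderm, 113.0 and 75.8 CPM in foregut endoderm, and 101.8 and 81.6 CPM in hepatoblasts, the liver precursors that bud from the gut. In the mesodermal, neural crest and neural types that entered the tests it lay between 0 and 25.8 CPM. No UMI was seen among 318 splanchnic mesoderm, 179 ectomesenchyme, 64 neural crest or glial and 80 neural tube cells. The ranges of the 3 epithelial types do not overlap those of any other type that entered the tests. Against the mean of the other types, the log2 fold change was 5.64 ± 0.43 (SE) in surface ectoderm (edgeR adjusted p = 1.2e-18), 4.84 ± 0.39 in foregut endoderm (edgeR adjusted p = 1.8e-17) and 4.82 ± 0.49 in hepatoblasts (edgeR adjusted p = 6.9e-13). Across all genes, 8.67%, 11.0% and 8.41% were called in either direction in those 3 comparisons. The mean of the other types is lowered by those with no Cdh1 UMI, so these fold changes are no measure of size. Relative to the other types pooled by UMIs, Cdh1 was 5.24 to 14.5 times as high in these 3 types, over both libraries.

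Cells with a Cdh1 UMI made up 40.9% of surface ectoderm (exact 95% interval 30.5 to 51.9%), 35.3% of foregut endoderm and 16.9% of hepatoblasts, against 0.346% of erythroid cells, of which 1 in 289 held a UMI. Hepatoblasts were the shallowest of the 3 (medians of 1474 and 1780.5 UMIs, against 3410 to 3711 UMIs in the other two). After every cell was thinned to 1000 UMIs the shares were 11.0% of 82, 11.7% of 162 and 8.93% of 112 cells, with intervals that overlapped. The lower share in hepatoblasts was therefore not detectable at equal depth, and between hepatoblasts and foregut endoderm the level itself differed by a log2 fold change of -0.02 ± 0.41 (edgeR adjusted p = 1.0).

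Paraxial mesoderm, the tissue of the somites, was the one non-epithelial type with a Cdh1 call. It held 12.0 and 25.8 CPM from 4 and 8 UMIs, and the log2 fold change over the mean of the other types was 2.32 ± 0.61 (edgeR adjusted p = 0.0039, with 5.85% of all genes called). That mean is lowered by types with no UMI, so the fold change is no measure of size. The other types pooled by UMIs held 21.1 and 17.0 CPM. Paraxial mesoderm thus lay below them in replicate 1 and above them in replicate 2. All 12 UMIs of paraxial mesoderm came from cells with 2 of the gate's markers. Among the 17 and 13 cells with 3 or more markers Cdh1 was at 0 in both libraries, and Epcam in the whole gate stood at 60.1 and 193.5 CPM, against 19.6 and 22.8 CPM in splanchnic mesoderm. Differentiating neurons held 188.0 and 172.5 CPM of Epcam, with 0 and 10.15 CPM of Cdh1. The part of epithelial cells in this gate was not tested.

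Cdh3, which many epithelia make together with E-cadherin, overlapped with Cdh1 in part. Surface ectoderm held 72.6 and 117.4 CPM and foregut endoderm 29.2 and 59.0 CPM, but hepatoblasts only 13.9 and 25.1 CPM. The second-highest type was mesodermal: epicardial or mesothelial cells, the sheet that covers the heart and body cavity, held 60.8 and 75.3 CPM of Cdh3 and 2.25 and 7.53 CPM of Cdh1. Cdh3 was called higher than in the mean of the other types in surface ectoderm (log2 fold change 3.00 ± 0.40, edgeR adjusted p = 4.9e-09), epicardial cells (2.56 ± 0.36, edgeR adjusted p = 3.3e-08, with 10.3% of all genes called) and foregut endoderm (1.80 ± 0.38, edgeR adjusted p = 0.00020). Erythroid cells had no Cdh3 UMI among 289 cells, and they were called lower (edgeR adjusted p = 7.7e-05, with 45.8% of all genes called there).

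Of epicardial cells, 26.0% had a Cdh3 UMI (exact 95% interval 19.1 to 33.9%) and 10.4% after thinning, close to the 31.8% and 12.2% of surface ectoderm. Cardiomyocyte transcripts were present in the epicardial gate, with Myl7 at 1069 and 1325 CPM. Cdh3 was at 72.9 and 61.6 CPM in epicardial cells with 3 or more markers, against 11.5 and 36.4 CPM in cardiomyocytes. The part of cardiomyocyte transcripts in the epicardial values was not tested.

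Cdh2, the cadherin of heart muscle and of the neural plate and its derivatives, was the most widely shared member together with Cdh11. Cardiomyocytes held the most, 274.4 and 214.9 CPM, followed by epicardial cells with 231.8 and 195.7 CPM and neural tube progenitors with 202.8 and 192.8 CPM. Neural crest or glial precursors held 148.2 and 184.7 CPM, differentiating neurons 207.8 and 101.5 CPM, paraxial mesoderm 162.3 and 96.7 CPM and splanchnic mesoderm 118.6 and 97.6 CPM. The library ranges of neighbours in this order overlapped, except those of neural tube progenitors and neural crest or glial precursors. The low end was foregut endoderm (9.12 and 50.5 CPM), surface ectoderm (0 and 18.9 CPM) and erythroid cells (5.77 and 0 CPM). In replicate 2, foregut endoderm cells with 2 gate markers held 76.3 CPM of Cdh2, above their 61.1 CPM of Cdh1. Those with 3 or more held 18.8 CPM of Cdh2 and 93.9 CPM of Cdh1. In replicate 1, Cdh2 was at 13.2 CPM with 2 markers and 6.24 CPM with 3 or more.

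In the test against the mean of the other types, Cdh2 was higher in 7 types and lower in 3. The largest rise was in cardiomyocytes, with a log2 fold change of 1.98 ± 0.18 (edgeR adjusted p = 9.8e-16, with 22.3% of all genes called). Epicardial cells (1.64 ± 0.20), neural tube progenitors (1.54 ± 0.26) and neural crest or glial precursors (1.25 ± 0.30) followed, with edgeR adjusted p of 4.2e-10, 2.3e-06 and 0.0012, where 10.3%, 8.4% and 5.52% of all genes were called. Paraxial mesoderm (0.87 ± 0.24, edgeR adjusted p = 0.0062), neurons (1.10 ± 0.37, edgeR adjusted p = 0.033) and splanchnic mesoderm (0.56 ± 0.19, edgeR adjusted p = 0.039) were called but lost the call when the library was left out of the model, with adjusted p of 0.159, 0.180 and 0.415. Under the Wald test of DESeq2 the calls in paraxial and splanchnic mesoderm were lost too (adjusted p of 0.133 and 0.432), and the one in splanchnic mesoderm also with its size factors in edgeR (0.0569). Of all genes, 5.85%, 9.0% and 9.68% were called in those comparisons. Cdh2 was lower in surface ectoderm (-2.62 ± 0.57, edgeR adjusted p = 0.00030) and foregut endoderm (-1.68 ± 0.34, edgeR adjusted p = 8.9e-05), as it was in erythroid cells. With cells thinned to 1000 UMIs, 4 of these 10 calls held, those of cardiomyocytes, epicardial cells, neural tube progenitors and foregut endoderm. Hepatoblasts, the other endodermal type, held 74.0 and 37.7 CPM and were not called, with the Cdh2 difference from foregut endoderm at 1.21 ± 0.54 on the log2 scale (edgeR adjusted p = 0.21).

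Cdh11, a cadherin of mesenchyme, had its highest levels in splanchnic mesoderm with the second heart field (294.8 and 262.0 CPM) and paraxial mesoderm (240.4 and 283.8 CPM), whose ranges overlapped. Epicardial cells held 164.3 and 176.9 CPM, and ectomesenchyme, the skeleton-forming branch of the cranial neural crest, 134.8 and 183.1 CPM. Against the mean of the other types the log2 fold changes were 2.14 ± 0.14 in splanchnic mesoderm (edgeR adjusted p = 3.3e-23), 2.07 ± 0.17 in paraxial mesoderm (edgeR adjusted p = 1.1e-16), 1.39 ± 0.17 in ectomesenchyme (edgeR adjusted p = 4.9e-10, with 8.72% of all genes called) and 1.38 ± 0.19 in epicardial cells (edgeR adjusted p = 1.8e-08). Cells with a Cdh11 UMI made up 50.9% of splanchnic and 56.1% of paraxial mesoderm, and 23.4% and 20.6% after thinning, against 3.46% and 1.44% of erythroid cells.

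The epithelial types lay at the other end for Cdh11. Foregut endoderm held 14.0 and 14.6 CPM, hepatoblasts 27.8 and 18.8 CPM and surface ectoderm 27.2 and 26.5 CPM, and all 3 were called lower than the mean of the other types (log2 fold changes of -2.44 ± 0.34, -1.62 ± 0.44 and -1.52 ± 0.42, with edgeR adjusted p of 1.9e-08, 0.0047 and 0.0069), as were erythroid cells. With cells thinned to 1000 UMIs the call held in hepatoblasts (edgeR adjusted p = 0.024) and was lost in foregut endoderm (0.127), surface ectoderm (0.326) and erythroid cells (0.201). Neural crest or glial precursors, at 43.2 and 33.0 CPM, and neural tube progenitors, at 34.8 and 105.6 CPM, were called in neither direction. Neural tube progenitors with 2 gate markers held 48.6 and 157.8 CPM of Cdh11, against 27.1 and 32.9 CPM in those with 3 or more. Neurons with 2 markers held 234.1 and 96.7 CPM, against 56.2 and 59.25 CPM with 3 or more.

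Endothelial cells also had a Cdh11 call (0.76 ± 0.16, edgeR adjusted p = 0.00021, with 15.3% of all genes called), with 111.2 and 110.3 CPM. The other types pooled by UMIs held 115.5 and 112.2 CPM. Endothelial cells thus lay above the log-scale mean of the types, but not above the pooled level. The endothelial level split by how firmly a cell was placed: cells with 2 endothelial markers held 189.0 and 235.8 CPM of Cdh11 and 48.3 and 31.6 CPM of Cdh5, whereas those with 3 or more held 81.2 and 39.1 CPM of Cdh11 and 323.2 and 459.7 CPM of Cdh5. With 3 or more markers required, the call was lost (edgeR adjusted p = 0.258).

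Cdh5, the adherens junction cadherin of blood vessels and endocardium, was the member with the narrowest range. Endothelial cells held 202 and 293 UMIs, or 246.8 and 304.8 CPM, and the other 12 types together held 0 UMIs in replicate 1 and 1 in replicate 2, which lay in an erythroid cell. No fold change is given because nearly all other types were at 0; the edgeR adjusted p was 1.6e-37, whereas the Wald test of DESeq2 gave an adjusted p of 0.331. A Cdh5 UMI was found in 41.4% of the 459 endothelial cells (exact 95% interval 36.8 to 46.1%) and in 24.3% after thinning. None of the 318 splanchnic mesoderm cells held one, for which the upper end of the exact 95% interval is 1.15%.

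Cdh6, a cadherin known from the early neural crest in the mouse, was the rarest member, with 74 and 38 UMIs in all cells kept. Its highest level was in neural crest or glial precursors, 37.0 and 26.4 CPM from 10 UMIs, followed by foregut endoderm with 16.4 and 8.42 CPM from 12 UMIs. Hepatoblasts held 23.1 CPM in replicate 1 and 0 in replicate 2. It did not pass the filter on low counts and has no value in the test reported for the others. With the filter removed, neural crest or glial precursors were higher than the mean of the other types by a log2 fold change of 3.42 ± 0.77 (edgeR adjusted p = 0.00037), and so was foregut endoderm (2.10 ± 0.67, edgeR adjusted p = 0.035), where 1.73% and 4.37% of all genes with a count were called. The level in ectomesenchyme, the other crest derivative, was 3.46 and 6.73 CPM.

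Over the 5 members tested and the 13 types, 28 of 65 comparisons of a type with the mean of the others were called, 20 higher and 8 lower, where 13.0% of all genes and comparisons were (8.95% higher and 4.05% lower). The filter kept Cdh1 and Cdh5 through the few types in which they are abundant, so that share is given as a description and is not set against the background.

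The cadherin with the most UMIs in a type, its main cadherin, was the same in both libraries in 13 of 13 types at full depth, erythroid cells included, and in 10 of 13 after thinning to 1000 UMIs. Cdh1 came first in surface ectoderm (63.3% and 48.2% of the UMIs of the 6 members), foregut endoderm (62.0% and 36.5%) and hepatoblasts (42.3% and 50%). Cdh2 came first in cardiomyocytes (70.0% and 64.9%), epicardial cells (50% and 42.6%), neural tube progenitors (85.4% and 61.8%), neurons (56.8% and 52.6%) and neural crest or glial precursors (64.9% and 71.8%). Cdh11 came first in splanchnic mesoderm (68.1% and 69.4%), paraxial mesoderm (55.9% and 64.2%) and ectomesenchyme (54.2% and 73.9%), and Cdh5 in endothelial cells (58.2% and 61.9%). Some leads were narrow in 1 library. In replicate 2, epicardial cells held 52 UMIs of Cdh2 and 47 of Cdh11, and foregut endoderm 27 of Cdh1 and 21 of Cdh3. Neurons there held 10 of Cdh2 and 7 of Cdh11. In replicate 1, hepatoblasts held 22 of Cdh1 and 16 of Cdh2, and ectomesenchyme 39 of Cdh11 and 31 of Cdh2. Other leads were wide, as in cardiomyocytes (119 and 124 UMIs, against 43 and 43 of Cdh11). First against second was not tested, so the main cadherin is a rank alone. Erythroid cells held only 19 and 6 UMIs of all members, most of them Cdh11, and have no main cadherin to speak of at this depth. After thinning, 3 types differed between libraries. Epicardial cells had Cdh2 first in replicate 1 (13 of 29 UMIs) and Cdh11 first in replicate 2 (20 of 40 UMIs, with 22.5% Cdh2). Surface ectoderm had Cdh1 first in replicate 1 (4 of 7 UMIs) and Cdh3 first in replicate 2 (9 of 18 UMIs, with 7 of Cdh1). Neural crest or glial precursors had 2 member UMIs in replicate 1, neither of them Cdh2, and 5 of 8 from Cdh2 in replicate 2.

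**Figure D2:**
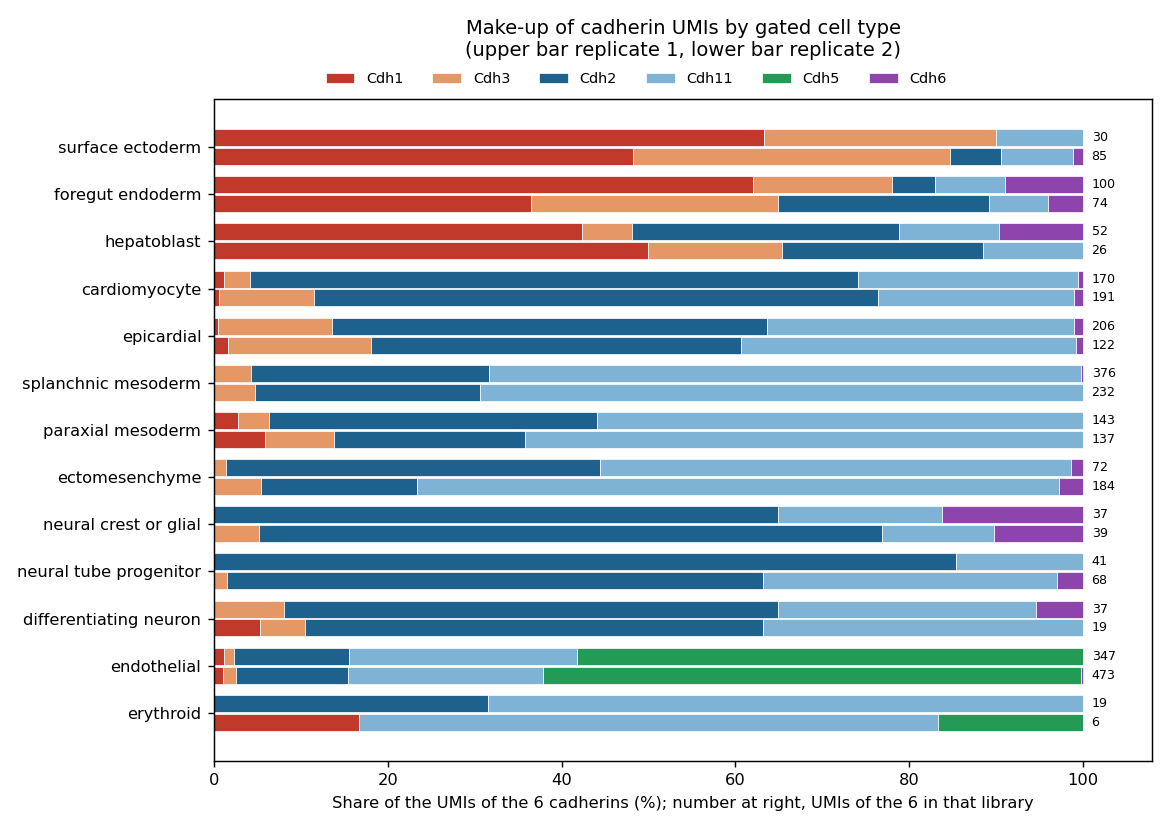
Share of each cadherin among the UMIs of all 6 (horizontal axis, %) in 13 gated cell types, with replicate 1 above replicate 2 in each pair of bars and the number of UMIs at the right. Warm colours (Cdh1, Cdh3) fill the larger part of the bars of surface ectoderm and foregut endoderm, blue ones (Cdh2, Cdh11) the larger part in muscle, mesenchyme and neural types, and green (Cdh5) that in endothelial cells.

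Summed over the germ layers, Cdh5 had UMIs in mesodermal types alone (51.3 and 79.8 CPM, against 0 in both libraries of the ectodermal and endodermal types), whereas each of the other 5 members had UMIs in all 3 layers. Over all ectodermal types Cdh1 was at 22.8 and 28.5 CPM, with 19 of 19 and 41 of 42 of those UMIs in surface ectoderm, while Cdh2 was at 132.9 and 80.0 CPM and Cdh11 at 79.0 and 120.7 CPM. Endodermal types held 109.8 and 77.6 CPM of Cdh1, 27.5 and 46.6 CPM of Cdh2 and 18.3 and 15.5 CPM of Cdh11. Mesodermal types held 2.79 and 4.61 CPM of Cdh1, 109.5 and 88.7 CPM of Cdh2 and 141.2 and 121.8 CPM of Cdh11. These sums weigh each type by the cells recovered and are given as values without a test.

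Pairs of related types showed exchanges between members. In all, 9 pairs were tested, and 11 of 45 comparisons of a member were called, 6 higher and 5 lower, where 6.28% of all genes and pairs were (3.54% higher and 2.74% lower). Without the library as a block, 6 were called. Endothelial cells were in none of the 9 pairs. Cdh5 therefore had no UMI in either type of any pair, and its comparisons could not be called. The count is given as a description and is not set against the background.

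Cardiomyocytes are formed in part from second heart field progenitors in splanchnic mesoderm, and the cadherins of these types were opposite in weight. Cdh2 stood at 274.4 and 214.9 CPM in cardiomyocytes, against 118.6 and 97.6 CPM in splanchnic mesoderm, a log2 fold change of 1.31 ± 0.21 (edgeR adjusted p = 2.0e-06, with 16.7% of all genes called in this pair; adjusted p = 0.108 without the library block). Cdh11 stood at 99.2 and 74.5 CPM in cardiomyocytes, against 294.8 and 262.0 CPM in splanchnic mesoderm (-1.57 ± 0.19, edgeR adjusted p = 1.6e-09). For both genes the library ranges of these types do not overlap, and Cdh3 did not pass the test (0.48 ± 0.48, edgeR adjusted p = 0.71).

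Epicardial cells, another derivative of splanchnic mesoderm, held more of Cdh3 (1.88 ± 0.43, edgeR adjusted p = 0.0016, with 7.24% of all genes called in this pair) and Cdh2 (1.00 ± 0.23, edgeR adjusted p = 0.0015) and less Cdh11 (-0.70 ± 0.18, edgeR adjusted p = 0.0072) than splanchnic mesoderm. All 3 calls were lost without the library block, at adjusted p of 0.0666, 0.317 and 0.318, and those of Cdh2 and Cdh11 under the Wald test of DESeq2 (0.239 and 0.204). Paraxial and splanchnic mesoderm differed in Cdh1 alone, which was at least 4.54-fold higher in paraxial mesoderm against a floor of 3 UMIs per library (edgeR adjusted p = 0.00028, with 3.7% of all genes called), with the reservation on that gate given above. Their Cdh11 differed by a log2 fold change of only -0.07 ± 0.17 (edgeR adjusted p = 0.91).

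Neural tube progenitors and surface ectoderm, both from the early ectoderm, held different cadherins. Cdh2 was at 202.8 and 192.8 CPM in neural tube progenitors, against 0 and 18.9 CPM in surface ectoderm (3.85 ± 0.57 on the log2 scale, edgeR adjusted p = 2.7e-07, with 7.72% of all genes called). Cdh1 was at 0 in both libraries of neural tube progenitors and thus at least 10.5-fold lower than the 172.5 and 155.3 CPM of surface ectoderm (edgeR adjusted p = 1.5e-08). Cdh3 had 1 UMI in neural tube progenitors and 39 in surface ectoderm, a ratio of 0.025 with an exact 95% counting interval of 0.001 to 0.145 (edgeR adjusted p = 1.6e-05).

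Cdh2 and Cdh11 also separated the branches of the neural crest. The ectomesenchyme gate differed between libraries, with 40 cells in replicate 1 and 139 in replicate 2. Of these, 5 and 39 had 3 or more markers, and its marker Dlx5 was found in 0.297% and 3.10% of all kept cells. The part of this imbalance in the values below was not tested. Ectomesenchyme held 134.8 and 183.1 CPM of Cdh11, against 43.2 and 33.0 CPM in neural crest or glial precursors, which was 4.17-fold higher by the means (log2 fold change 2.14 ± 0.39, edgeR adjusted p = 2.8e-05, with 2.53% of all genes called). Cdh2 was at 107.1 and 44.4 CPM in ectomesenchyme, against 148.2 and 184.7 CPM in neural crest or glial precursors (-1.31 ± 0.35, edgeR adjusted p = 0.011, 0.298 without the library block and 0.176 by the Wald test of DESeq2). With cells thinned to 1000 UMIs both calls were lost, at adjusted p of 0.256 for Cdh11 and 0.892 for Cdh2. Cdh6, with no filtered test, stood at 3.46 and 6.73 CPM in ectomesenchyme, against 37.0 and 26.4 CPM in neural crest or glial precursors.

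**Figure D3:**
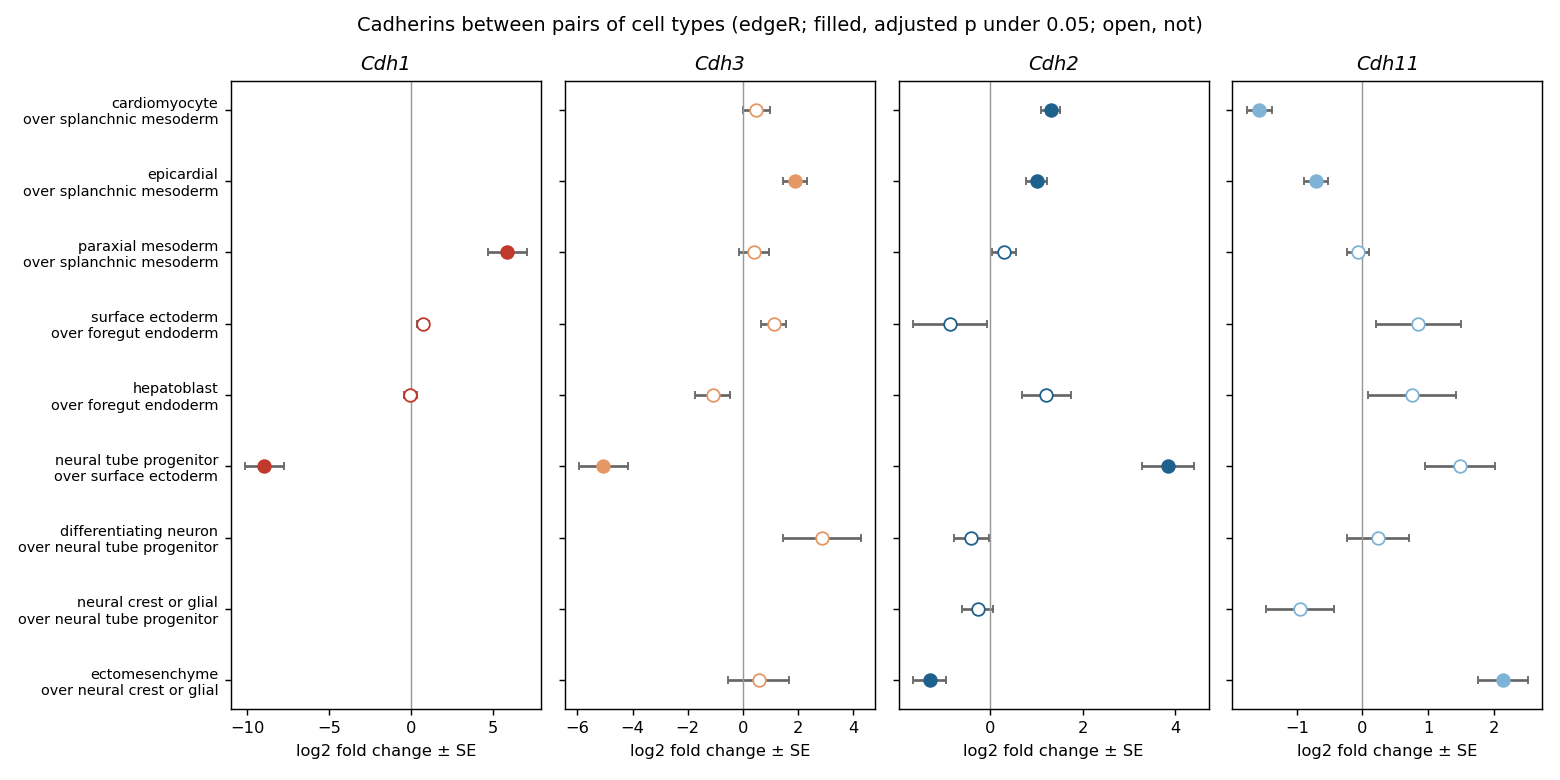
Log2 fold change with its SE (horizontal axis) of Cdh1, Cdh3, Cdh2 and Cdh11 in 9 pairs of cell types (vertical axis, first type over second), with filled points for an adjusted p under 0.05 and no point where both types held 3 UMIs or fewer; Cdh1 values against a type with no UMI depend on the prior count of the fit and are no measure of size. Cdh2 and Cdh11 point in opposite directions for cardiomyocytes, epicardial cells and ectomesenchyme, and Cdh1, Cdh3 and Cdh2 separate neural tube from surface ectoderm.

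No member passed the test in the other 4 pairs, which were surface ectoderm over foregut endoderm, hepatoblast over foregut endoderm, neuron over neural tube progenitor, and neural crest or glial precursor over neural tube progenitor. Of all genes, 4.64%, 4.49%, 6.0% and 3.5% were called in them. Cdh1 was 0.74 ± 0.38 and Cdh3 1.11 ± 0.44 higher on the log2 scale in surface ectoderm than in foregut endoderm (edgeR adjusted p of 0.31 and 0.14). Cdh2 differed by -0.41 ± 0.38 between neurons and neural tube progenitors and by -0.27 ± 0.33 between neural crest or glial precursors and neural tube progenitors. An adjusted p above the threshold does not show that these types hold the same levels.

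Within single cells, more than 1 cadherin was often seen. Of the cells placed in a type, 563 and 632 held no member UMI, 363 and 469 held 1 member, 179 and 166 held 2, and 28 and 28 held 3 or more. Cells with at least 2 members were 16.6 ± 2.33% of the gated cells (SD, n = 2 libraries), and 2.02% after thinning to 1000 UMIs.

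Cdh2 with Cdh11 was the most frequent pair. Both were seen in 68 of 318 splanchnic mesoderm cells, where the product of their shares within each library would give 51.9 cells, and in 33 of 264 cardiomyocytes, against 21.3. Paraxial mesoderm had 29 of 114 cells with both (24.7 by the product), epicardial cells 30 of 146 (25.2) and ectomesenchyme 21 of 179 (17.2). The product takes all cells of a type as equally deep, and the part of depth was not tested beyond thinning. After thinning, both were seen in 5 splanchnic cells (4.50 by the product), 7 cardiomyocytes (3.88), 2 epicardial (2.90), 1 paraxial (1.77) and 1 ectomesenchyme cell (1.21). Only splanchnic cells and cardiomyocytes lay above the product there, and all these counts are too small to read.

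Cdh1 and Cdh3 were seen together in 16 of 173 foregut endoderm cells, against 9.92 by the product, and in 14 of 88 surface ectoderm cells, against 11.3. Of the foregut endoderm cells with Cdh3, 55.2% also held Cdh1. In epicardial cells 26 of the 38 cells with Cdh3 also held Cdh2 and 21 held Cdh11, against 20.2 and 12.5 by the product. After thinning, Cdh1 with Cdh3 was seen in 0 foregut endoderm cells (0.58 by the product) and 1 surface ectoderm cell (1.10). Cdh3 with Cdh2 was then seen in 2 epicardial cells (1.88) and Cdh3 with Cdh11 in 5 (2.35), counts again too small to read.

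Cdh1 and Cdh2, the E- and N-cadherin genes, met in 6 of 160 hepatoblasts, against 2.88 by the product, in 3 of 173 foregut endoderm cells, against 4.39, and in 2 of 88 surface ectoderm cells, against 1.56. Among the cells that met several gates, which can hold more than 1 cell, 14 of 294 had both, against 17.1. Cdh5 and Cdh11 met in 21 endothelial cells, against 35.2 by the product, and in 2 against 8.93 after thinning. By marker number, as given above, Cdh11 was higher in the endothelial-gate cells with less Cdh5. Cdh5 met Cdh2 in 24 endothelial cells, against 26.8 by the product.

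**Figure D4:**
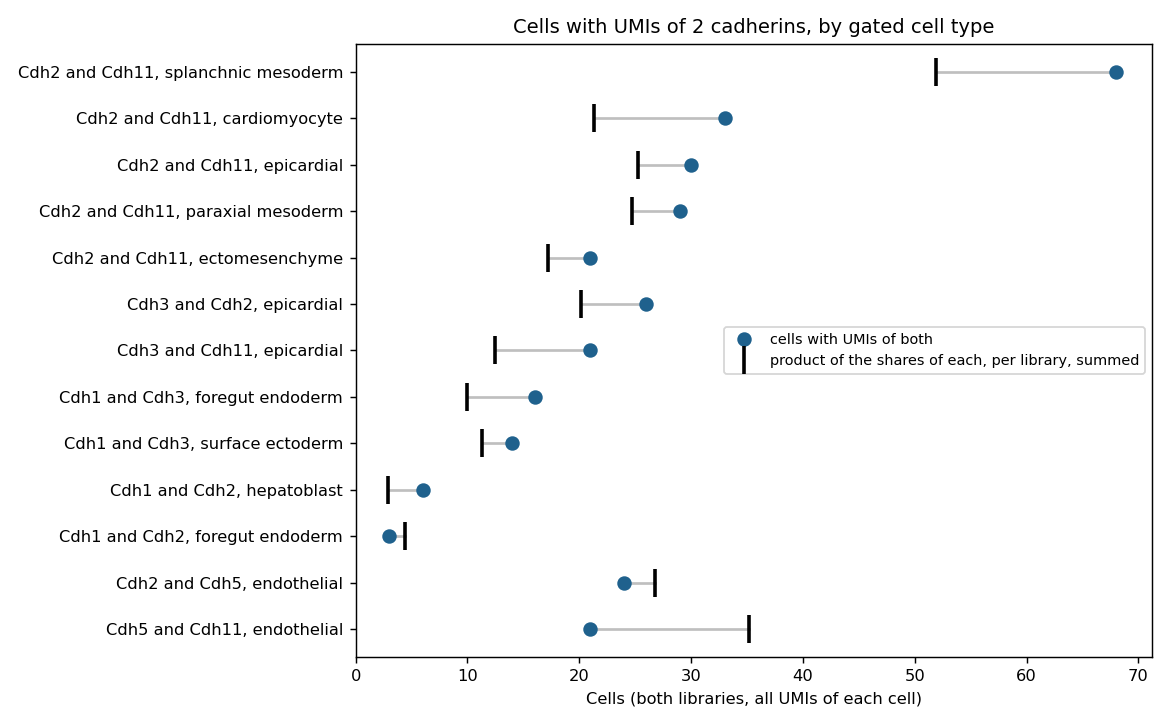
Cells with UMIs of both members of a pair (circles) and the number given by the product of the shares of each within each library (black bars), in cells of both libraries at full depth (horizontal axis), for 13 combinations of a pair and a cell type. Circles lie right of the bars for Cdh2 with Cdh11 and for Cdh1 with Cdh3, and left of the bar for Cdh5 with Cdh11 in endothelial cells.

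The remaining cadherins were too sparse to compare. Of 16 further cadherins looked up, none passed the filter on low counts, and in the gated types they held 0 to 29 UMIs each. Cdh19, known from Schwann cell precursors in the mouse, was at 25.1 CPM in neural crest or glial precursors on average, where Cdh6 was also highest. No type averaged over 25.1 CPM for any of the 16.

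The catenins and junction linkers were measured more fully: 12 of 14 were tested. Beside catenins this list holds nectins and Afdn, so its counts do not describe the link of cadherins to actin alone. In cardiomyocytes 7 were higher than in the mean of the other types and 1 lower, where 22.3% of all genes were called (list median 0.56 on the log2 scale, against 0.01 over all genes tested). In foregut endoderm 7 were higher and 0 lower, where 11.0% were called (0.70, against 0.05). Afdn, an actin-binding partner of nectins, averaged 253.6 CPM in cardiomyocytes (edgeR adjusted p = 5.2e-20), and Jup, the plakoglobin of junctions and desmosomes, 54.8 CPM (edgeR adjusted p = 2.5e-06). Surface ectoderm had 4 higher and 0 lower (8.67% of all genes called), with Jup at 73.8 CPM (edgeR adjusted p = 0.00020), against 2.30 CPM in neural tube progenitors. Endothelial cells had 5 higher and 1 lower (15.3% of all genes called) and ectomesenchyme 0 higher and 2 lower (8.72%). Erythroid cells had 0 higher and 10 lower, in a comparison where 45.8% of all genes were called.

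Transcription factors that drive cells out of epithelia in many settings, several of which repress Cdh1 in cultured cells, were the 7 members of another list, all tested. In foregut endoderm 6 were lower than in the mean of the other types and 0 higher (list median -2.36, against 0.05 over all genes), and in ectomesenchyme, paraxial mesoderm and endothelial cells 6 were higher and 0 lower in each (medians of 2.80, 1.95 and 1.27, against 0.04 in each). Of all genes, 11.0% were called in foregut endoderm, 8.72% in ectomesenchyme, 5.85% in paraxial mesoderm and 15.3% in endothelial cells. The list was not split by marker number. Endothelial and paraxial gates held cells with 2 markers whose cadherins differed from those with 3 or more, as given above. In the foregut endoderm gate Cdh2 differed in this way in replicate 2. The part of such cells in these values was not tested. Prrx1 averaged 308.8 CPM and Twist1 100.7 CPM in ectomesenchyme (edgeR adjusted p of 1.7e-24 and 3.3e-13). In surface ectoderm Snai2 stood at 60.6 CPM, higher than in the mean of the other types (edgeR adjusted p = 0.00068), although Zeb2 and Prrx1 were lower there. Against the 5.05 CPM of foregut endoderm, Snai2 was also higher in surface ectoderm (edgeR adjusted p = 9.8e-05). Zeb2 was at 330.5 CPM in neural crest or glial precursors, against which ectomesenchyme held 36.8 CPM (-3.35 on the log2 scale, edgeR adjusted p = 1.5e-12).

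Among 9 regulators of epithelial identity, 3 passed the filter on low counts. Grhl1, Ovol1, Ovol2, Esrp2, Klf5 and Elf3 did not. The highest of these was Klf5, at 29.5 CPM in foregut endoderm, against 4.54 CPM in surface ectoderm. The filter kept Esrp1 and Grhl2 through the types in which they are abundant. Their calls in those types are therefore given as a description. Esrp1, an epithelial splicing factor, averaged 120.3 CPM in foregut endoderm, 74.6 CPM in surface ectoderm and 33.4 CPM in hepatoblasts, and was called higher in each (edgeR adjusted p of 1.4e-18, 1.2e-09 and 0.0012). Grhl2, a grainyhead factor that activates Cdh1 in mouse epithelia, averaged 57.1 CPM in foregut endoderm and 60.9 CPM in surface ectoderm (edgeR adjusted p of 1.9e-11 and 6.9e-08), but 10.9 CPM in hepatoblasts, where it did not pass (edgeR adjusted p = 0.14). The third, Grhl3, is one of the markers that placed cells in surface ectoderm, so its level there was set by the gate. Outside the epithelia, Esrp1 was called higher in paraxial mesoderm, at 23.4 CPM (edgeR adjusted p = 0.0086, and 0.00065 over the 0.58 CPM of splanchnic mesoderm), the gate that also had the Cdh1 call. Grhl3 was called higher in epicardial cells, at 11.3 CPM (edgeR adjusted p = 0.012).

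Genes whose level followed a member most closely across the 13 types were ranked by the lower of the Pearson correlations of log2(CPM + 10) in the 2 libraries, over 5547 genes. The values describe 13 types that share their library, and no p is given. Cdh1 was followed by Cldn7 (0.91 and 0.95), a claudin of tight junctions, then by Slc2a3, Mapk13, Crb3 (0.89 and 0.95), an apical polarity protein, and Ap1m2. Cdh11 was followed by Pdgfra (0.92 and 0.95), a receptor of mesenchymal cells, and Col3a1, Prrx2, Dse and Wnt5a. Cdh2 came with Elovl5, Serf2, Ncam1 (0.88 and 0.79), a neural cell adhesion molecule, Fam193a and Ptp4a2. Cdh5 came with Ctla2a, Gimap6, Mmrn2, Clec1b and Icam2, all at 0.98 or above in both libraries, as any gene seen in 1 type alone would.

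Cdh3 had weaker companions (P4ha2, Bcam, Arl4c, Igfbp5 and Gprc5c, the first at 0.81 and 0.84), and for Cdh6 the closest, Camk2b, reached 0.66 and 0.68. Between members, Cdh2 and Cdh11 correlated at 0.66 and 0.59, Cdh1 and Cdh3 at 0.54 and 0.68, and Cdh1 and Cdh2 at -0.63 and -0.36.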

How the data were processed

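The deposited values are raw UMI counts per gene and cell barcode of 2 Drop-seq libraries, whole numbers to which the authors applied no scaling that the values reveal. Per the submitters' processing notes, the build was mm10 and Scanpy was used, while aligner, counting tool and barcode choice are not given in these sources. Depth was 11958912 UMIs over 5000 barcodes in replicate 1 and 14131384 UMIs over 7497 barcodes in replicate 2. The libraries shared 82 barcodes, none of them (0) among the cells kept. Coordinates are from GENCODE M21 on GRCm38, the same assembly as mm10.

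Types rest on 102 of 118 fixed markers. A marker was left out if found in over 10% of kept cells of both libraries or in at least 25% of the cells of another provisional type, and cells in several gates were dropped. Gates favour deep cells. Scrublet's own threshold called only 0 and 1 cells and was not used beyond an alternative.

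UMIs were summed per type and library (26 sums) and tested with edgeR 4.0.16 (R 4.3.3): TMM, filterByExpr, which left 8464 genes, and the quasi-likelihood F test, two-sided, with type and library as terms and 12 residual degrees of freedom. SEs are the fold change over the root of F. The mean of the other types weighs each type equally on the log scale, so types near 0 lower it below the pooled level. Adjustment is Benjamini-Hochberg over all genes and all comparisons of a kind, with a threshold of 0.05. The library is a block because each library is 1 pool in which every type was processed together, on another day than the other pool, and library deviations correlated between types by 0.209 to 0.641. The p-values rest on 2 libraries, and types were gated on the same cells. Exact intervals and floors of 3 UMIs cover counting error only. In counts simulated for foregut endoderm over the other types (7070 genes), 65.9% of 2-fold and 97.9% of 4-fold changes were recovered and 0% of unchanged genes called. Those counts were independent draws with the fitted dispersion, the same mean in all types apart from the planted changes, and no library effect. They therefore check the fit under its own model and do not show the rate of false calls in the real data.

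The cadherins and the lists were chosen with earlier results of these data known. All members are named, with the 4 smallest adjusted p of each list per comparison as candidates and the 5 closest genes by correlation, leaving out gate markers and genes under 50 CPM in every type. Alternatives changed the scaling, filter, test, block, cell filters, gate, doublets and depth. No sequences are shown.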

Additional observations from a re-analysis of the deposited data

How the results depend on the processing

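The 39 calls of members kept their direction under each alternative that could be fitted for them. All 39 stayed past the threshold with no scaling beyond totals, no filter on low counts, at least 800 genes per cell, no mitochondrial filter and the highest Scrublet scores left out; 38 did with the size factors of DESeq2 in edgeR, 33 with the Wald test of DESeq2 and 31 without the replicate block, which is the library. The calls lost in these fits, given with their adjusted p beside each result, are of Cdh2 (paraxial and splanchnic mesoderm and neurons, and 3 pairs), Cdh3 and Cdh11 (epicardial over splanchnic) and, by the Wald test, Cdh5. Without the replicate block 6 of 45 comparisons in pairs were called, against 11 with it, and 25 of 65 comparisons with the mean of the other types, against 28. With at least 3 gate markers, 8 types and 3 pairs could be fitted, and 18 and 6 comparisons were called, not all of them among the 39. Of the 39 calls that could be fitted at this setting, 21 held and 2 were lost, among them Cdh11 in endothelial cells. There 12 values reached 50 CPM in both libraries, against 21 in the main setting. The main cadherin was the same in both libraries in 8 of 8 types. With cells thinned to 1000 UMIs, 10 and 3 comparisons were called, the main cadherin was the same in both libraries in 10 of 13 types (epicardial cells, surface ectoderm and neural crest or glial precursors differed), and cells with at least 2 members fell to 2.02%, against 16.6% at full depth; they were 19.8% with at least 800 genes. Of 27 calls that could be fitted after thinning, which Cdh1 and Cdh3 could not, 14 were lost: Cdh2 in splanchnic (adjusted p = 0.996) and paraxial mesoderm (0.705), neural crest or glial precursors (0.882), neurons (0.155), surface ectoderm (0.228) and erythroid cells (0.0743); Cdh11 in foregut endoderm (0.127), surface ectoderm (0.326), endothelial (0.246) and erythroid cells (0.201); and both in epicardial over splanchnic cells (0.195 and 0.918) and ectomesenchyme over neural crest or glial precursors. The cause was not tested beyond the fewer cells and UMIs that these settings leave. Leaving out each library in turn gave 23 to 24 values at 50 CPM, 13 to 13 types with that main cadherin and 15.0 to 18.3% of cells with 2 members; fold changes from 1 library have no residual degrees of freedom, so they are values with no test, and all 39 kept their sign. Without scaling, the median of all genes moved by -1.04 (log2) in erythroid cells, where fold changes are relative to TMM. The pair of pharyngeal over splanchnic mesoderm was not run, since pharyngeal mesoderm had too few cells. Cdh1 in paraxial mesoderm and Cdh6 rest on few UMIs, and absence of a UMI at this depth is not absence of a transcript.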
